A study of Mus musculus with 3 samples.

Results

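Endoneurial mesenchymal cells are the fibroblast-like cells that lie among the axons of a peripheral nerve, inside each fascicle. Here they are the 1405 cells that the authors' cell metadata assign to the class MES_ENDO, of 7234 annotated cells in 3 single-cell RNA libraries from mouse sciatic nerve. The intact nerve held 663 of them among 1343 annotated cells, the bridge at day 7 after injury held 255 of 1780, and the bridge at day 21 held 487 of 4111. The comparison described is that of the 487 day 21 cells with the 663 intact cells, 1150 cells in all, with the 255 day 7 cells given beside them as a level. The question it addresses is which endoneurial transcripts were back near the intact level in the regenerating bridge, the new tissue that spans the gap of an injured nerve, and which were not.

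All 3 groups carried the R26-Tomato LSL reporter switched on by a tamoxifen-inducible Cre (CreERT2) under Pdgfrb, so every library is limited to cells in which this driver had been active. TdTomato-positive cells were sorted from pooled nerves after collagenase, hyaluronidase and DNAse digestion. Intact tissue alone was also cleared with myelin-removal beads, so the bead step and the intact state cannot be told apart. The number of animals in each pool, their age and their sex are not given in the sources used here. Each group is 1 library, so nothing below has a replicate check, no test was possible, and the 95% intervals cover counting error only.

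The nerve has 3 connective tissue layers: the epineurium outside, the perineurium that wraps each fascicle as a barrier of flat cells joined by tight junctions, and the endoneurium within. Endoneurial fibroblasts lay down the collagen around axons and Schwann cells and secrete factors that act on both. After a nerve is cut, mesenchymal cells enter the gap, and layered tissue has to form again around the axons that regrow.

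The summed unique molecular identifiers (UMIs, each marking 1 captured transcript) of the endoneurial class were 3470007 in intact nerve, 3736470 at day 7 and 4351337 at day 21. Cells were not equally deep, with a median of 4779 UMIs per cell in intact nerve, 15143 at day 7 and 8649 at day 21. Values are therefore given as CPM, each count divided by the total of the class in its own library and scaled to 1000000, and shares of cells after thinning each cell to 2000 UMIs. The median mitochondrial share of UMIs was 1.37% in intact cells and 1.43% at day 21. No cell barcode of the class was shared between the intact and day 21 libraries. The reporter itself stood at 85.6 CPM in intact nerve, 93.1 at day 7 and 86.4 at day 21.

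The class name was checked against 8 endoneurial markers, although the authors drew the classes from the same expression values, so the markers are not independent of the label. In intact nerve all 8 were highest in this class, among the 3 classes with at least 50 cells. At day 21 they were again all highest in it, among 5 classes, and at day 7 this held for 7 of 8, since Spp1 was higher in the class labelled MES_DIFF.

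The day 21 endoneurial class was near the intact class for most of its transcripts. Of 10197 genes with at least 20 UMIs in the higher library, 9055 lay within 2-fold of intact. Another 543 (5.33%) were more than 2-fold higher and 599 (5.87%) more than 2-fold lower. The median log2 ratio over all of them was 0.05. At day 7, against the same intact library, 959 of 10126 genes (9.47%) were more than 2-fold higher and 1094 (10.8%) lower, with a median of 0.01. Since both comparisons share the intact library, their values are set side by side and not correlated. In the same day 21 comparison 5.41% of 11531 measured genes were higher and 4.65% lower in the epineurial class, and 11.3% and 10.9% of 12169 in the perineurial class. The intact perineurial class held 116 cells, against 2069 at day 21 and 663 intact endoneurial cells. The part of counting error in the perineurial shares was not tested.

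Return was partial for the genes farthest from intact at day 7. Of 3081 genes detected in no less than 10% of endoneurial cells and at 50 CPM or more in some library, 98 were at least 4-fold lower at day 7. Of those 98, 19 were within 1.5-fold of intact at day 21 and 66 were still more than 2-fold lower. Another 82 genes were at least 4-fold higher at day 7. Of those, 13 were within 1.5-fold of intact at day 21, 56 were still more than 2-fold higher, and 1 was more than 2-fold lower.

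Of the 8 endoneurial markers, 5 lay within 2-fold of intact at day 21, 1 was higher and 2 were lower. Of all 10197 measured genes, 9055 lay within 2-fold, 5.33% were higher and 5.87% lower. Ccl11, an eosinophil-attracting chemokine, stood at 2248 CPM in intact nerve, 1180 at day 7 and 1948 at day 21. Abca8a, a lipid transporter, was at 936, 322 and 767 CPM, and the transcription factor Osr2 was at 361, 148 and 256. The transcription factors Meox1 (155, 104 and 129 CPM) and Etv1 (149, 115 and 117) complete the 5. These markers lay within 2-fold of intact at day 21.

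The other 3 markers lay outside that range. Sox9, a transcription factor, was at 327 CPM in intact nerve and at 145 in both bridge libraries, 2.26-fold lower at day 21 (95% interval 2.05 to 2.50), with a log2 ratio of -1.18 that became -0.95 with cells thinned to equal depth. Spp1, the matrix phosphoprotein osteopontin, was at 426 CPM in intact nerve, 1005 at day 7 and 182 at day 21. The Wnt inhibitor Wif1 was at 6.34, 150 and 19.1 CPM. The median log2 ratio over the 8 markers was -0.75 at day 7 and -0.32 at day 21.

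Of 4 measured genes of platelet-derived growth factor receptors and ligands, 1 was higher at day 21, the ligand gene Pdgfa (3.17, 12.6 and 8.04 CPM), and 0 were lower, with a median of 0.12 that was -0.41 after thinning. Pdgfrb, the receptor whose promoter drove the Cre, was at 382 CPM in intact nerve, 123 at day 7 and 299 at day 21. Its relative Pdgfra, a general fibroblast receptor, was at 1156, 403 and 701 CPM. The receptor-like gene Pdgfrl was at 65.99, 210 and 100 CPM. These 3 lay within 2-fold of intact at day 21.

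Among genes that had not returned, Rbp4 had the lowest ratio to intact. It encodes the carrier of retinol in plasma. Rbp4 was at 186 CPM in intact nerve (644 UMIs), 5.09 at day 7 and 7.81 at day 21 (34 UMIs), 23.8-fold lower at day 21 (16.8 to 34.6). At 2000 UMIs per cell, 23.7% of intact cells held an Rbp4 UMI against 1.64% of day 21 cells, and without thinning the shares were 37.6% and 5.54%. In the epineurial class Rbp4 was at 114 CPM in intact nerve and 91.4 at day 21.

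Crispld2, a secreted cysteine-rich protein, was at 1130.5 CPM in intact nerve, 41.5 at day 7 and 114 at day 21, 9.96-fold lower at day 21 (9.07 to 11). Thinned shares of cells with a Crispld2 UMI were 74.2%, 7.45% and 17.7%. The gene lies on chr8:119992438-120052793 (GRCm38, plus strand). Hsd11b1, the enzyme that turns inactive glucocorticoid into the active hormone, was at 87.6, 5.62 and 10.3 CPM.

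A2m, the broad protease inhibitor alpha-2-macroglobulin (chr6:121635376-121679227), was far higher in this class than in the other 2. In intact nerve it was at 189 CPM in endoneurial cells, 1.52 in epineurial cells and 1.38 in perineurial cells. In the bridge it was at 34.8 CPM at day 7 and 31.0 at day 21 in endoneurial cells, with 0 counts in epineurial and perineurial cells at day 21. Angptl7, a secreted angiopoietin-like protein, was at 1196.5 CPM in intact endoneurial cells, 271 at day 7 and 246 at day 21, a 4.87-fold lower level (4.55 to 5.21). Its day 21 level in the epineurial and perineurial classes was 5.73 and 6.13 CPM.

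Signalling genes and junction genes were among the others. Bmp5, a bone morphogenetic protein ligand, was at 63.7 CPM in intact nerve, 7.49 at day 7 and 9.65 at day 21. The matricellular protein gene Nov (CCN3) was at 81.3, 12.04 and 14.5 CPM, and Plac9b at 58.8, 5.62 and 8.04. The connexin gene Gjc3 was at 55.04, 3.75 and 8.96 CPM. Gstt1, a glutathione transferase, was at 184, 25.7 and 30.3 CPM.

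Idi1, Insig1 and Sqle act in cholesterol synthesis, the first as isopentenyl diphosphate isomerase, Insig1 as the sterol-dependent brake on the pathway and Sqle as squalene epoxidase. Idi1 was at 112 CPM in intact nerve, 4.55 at day 7 and 15.2 at day 21. Insig1 was at 108, 10.2 and 17.5 CPM, and Sqle at 58.8, 6.16 and 10.1. All 3 were more than 5-fold lower at day 21. Their log2 ratios were -2.87 for Idi1, -2.63 for Insig1 and -2.53 for Sqle, and thinning moved Idi1 to -2.19 and Sqle to -1.86.

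Promoter sequence from RefSeq on GRCm38.p6 is shown for 2 of these genes because they had the lowest ratios of the 3 and share a letter motif. The stretches lie within the 250 bases before the start sites, at chr13:8885557-8885605 for Idi1 and chr5:28071162-28071235 for Insig1, both on the plus strand and written 5′ to 3′. Capitals mark CCAAT read on either strand (CCAAT or ATTGG).
Idi1: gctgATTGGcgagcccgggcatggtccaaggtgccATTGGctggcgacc
Insig1: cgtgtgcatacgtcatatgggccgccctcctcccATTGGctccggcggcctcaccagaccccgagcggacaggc
CCAAT is common, present in 33.85% of all 32851 promoter windows of the same length, so a match is a description and not a site.

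**Figure D1:**
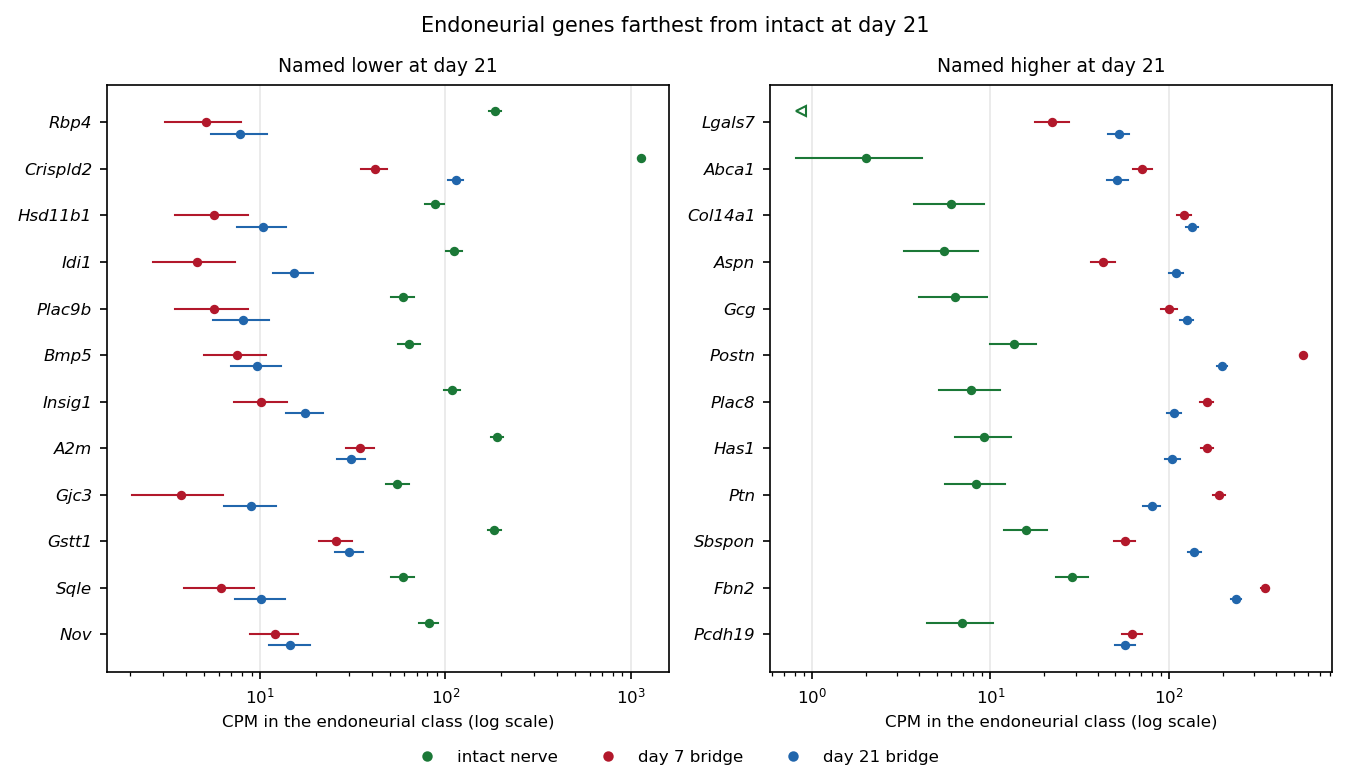
Level of the 12 genes named as farthest below intact (left) and the 12 farthest above it (right) in the endoneurial class, in CPM on a log scale, with green points for intact nerve, red for day 7 and blue for day 21. Bars are exact Poisson 95% intervals for counting error, and the open triangle marks 0 counts of Lgals7 in intact nerve, drawn at the level of 3 counts. On the left the day 7 and day 21 points both lie below the intact point for every gene, and on the right both lie above it.

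On the higher side, the genes named included 4 of extracellular matrix proteins. Col14a1, a collagen that decorates fibril surfaces, was at 6.05 CPM in intact nerve (21 UMIs), 122 at day 7 and 135 at day 21 (586 UMIs), 22.3-fold higher at day 21 (14.4 to 36.2). Aspn, the small proteoglycan asporin, was at 5.48, 42.8 and 110 CPM, 20.1-fold higher (12.7 to 33.6). Postn, the matricellular protein periostin, was at 13.5 CPM in intact nerve, 564 at day 7 and 199 at day 21. Fbn2, a microfibril protein of developing tissue, was at 28.8, 346 and 237 CPM. Aspn stood higher at day 21 than at day 7, while Postn and Fbn2 stood higher at day 7.

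Has1, a hyaluronan synthase, was at 9.22 CPM in intact nerve, 164 at day 7 and 105 at day 21. Ptn, the heparin-binding growth factor pleiotrophin, was at 8.36, 191 and 79.98 CPM. Abca1, which exports cholesterol from cells, was at 2.02, 70.9 and 51.5 CPM, 25.5-fold higher at day 21 (12.2 to 64.2, from 7 UMIs in intact nerve). Plac8 was at 7.78, 163 and 107 CPM. Sbspon, a secreted thrombospondin-repeat protein, was at 15.9, 56.7 and 139 CPM, and Pcdh19, a protocadherin, at 6.92, 62.1 and 56.8.

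Gcg, the gene of preproglucagon (chr2:62474530-62483650, minus strand), was at 6.34 CPM in intact nerve (22 UMIs), 100.1 at day 7 and 126 at day 21 (549 UMIs), 19.9-fold higher at day 21 (13 to 32). Thinned shares of endoneurial cells with a Gcg UMI were 0.905% in intact nerve, 12.2% at day 7 and 16.4% at day 21, and unthinned shares 2.26%, 42.4% and 45.4%. In the day 21 library the epineurial class had a thinned share of 0.292% and 1.55 CPM, and the perineurial class was at 18.2 CPM. The level of free RNA was not measured.

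Lgals7, a galectin of stratified epithelia, had 0 counts in the intact class and was at 22.2 CPM at day 7 and 52.4 at day 21. Against a floor of 3 counts in intact nerve it was at least 60.6-fold higher at day 21. The UMIs were gathered in few cells, with 88.2% of them in the 25 day 21 cells that held the most. The 52 cells with an Lgals7 UMI held perineurial markers at 581 CPM in sum against 165 in the 435 cells without, and endoneurial markers at 2433 against 3731. The perineurial class of that library held Lgals7 at 444 CPM. The part of misassigned cells or of perineurial RNA in this value was not tested.

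**Figure D2:**
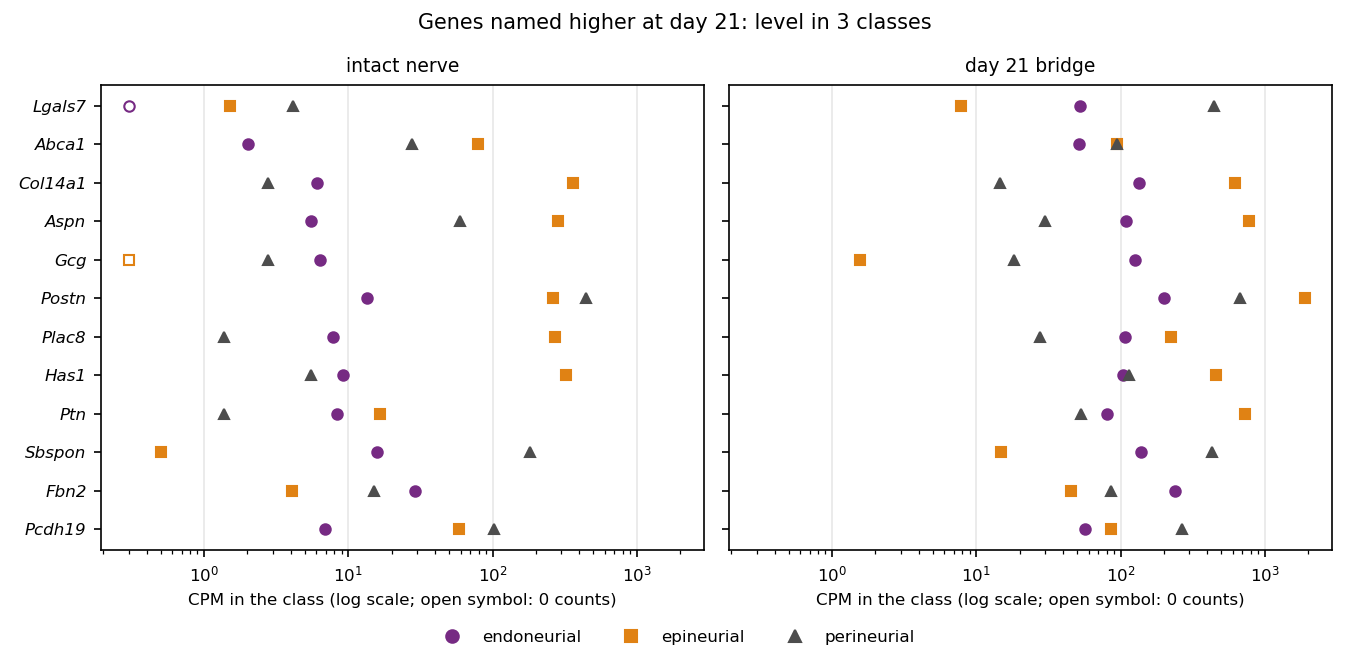
Level of the 12 genes named higher at day 21 in the endoneurial (purple circles), epineurial (orange squares) and perineurial (grey triangles) classes of the intact (left) and day 21 (right) libraries, in CPM on a log scale, with open symbols for 0 counts. In intact nerve Gcg and Fbn2 are highest in the endoneurial class and the other 10 are higher in another class.

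The genes named higher at day 21 were also compared between the 3 classes of intact nerve. Of the 12, 10 were higher in the intact epineurial or perineurial class than in the intact endoneurial class, and the exceptions were Gcg and Fbn2. Of all 10197 measured genes, 7253 were likewise not highest in the intact endoneurial class. Col14a1 was at 363 CPM in intact epineurial cells against 6.05 in endoneurial cells, and at day 21 the 2 classes were at 621 and 135. Has1 was at 325 CPM and Plac8 at 271 in intact epineurial cells, and both were at 9.22 CPM or less in intact endoneurial cells. Over all 543 genes more than 2-fold higher at day 21, 95 (17.5%) were highest in the endoneurial class among these 3 classes of intact nerve, against 28.9% of all 10197 measured genes. The choice of genes low in the intact endoneurial class favours this order, so it is a description.

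Of the 12 genes named lower, 9 were highest in the endoneurial class in intact nerve, and 5 still were at day 21. Among all 599 genes more than 2-fold lower, 54.1% were highest in the endoneurial class in intact nerve, against 28.9% of all measured genes, and 26.5% at day 21, against 28.7%. The choice of genes high in the intact endoneurial class favours the first of these shares.

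All cells compared here already carried the authors' label MES_ENDO, which the endoneurial markers describe, so a high sum of those markers is no independent check of them. In day 21 cells with a UMI of the gene the 8 endoneurial markers summed to less than in cells without it for 10 of the 11 genes so compared, all but Pcdh19 of the 12. For Col14a1 the sums were 3505 CPM in 211 cells with a UMI and 3620 in 276 without, and for Plac8 3553 and 3569. They were 3246 and 3745 CPM for Ptn, 3251 and 3761 for Postn, 3281 and 3868 for Gcg, and 3317 and 3876 for Sbspon. Aspn was the exception, with 3636 CPM in 193 cells and 3504 in 294. Perineurial marker sums at day 21 were higher in cells with a UMI for Postn (305 against 164 CPM) and Sbspon (288 against 130). The same held for Gcg (268 against 165), Abca1 (283 against 190), Ptn, Has1, Aspn and, as given above, Lgals7. These sums were lower in cells with a UMI for Col14a1 (190 against 247), Plac8 and Fbn2. The part of free RNA or of misassigned cells in these genes was not tested. With the 22 day 21 cells and 19 intact cells left out that held more epineurial than endoneurial marker UMIs, the 24 genes named as farthest from intact at day 21 stayed more than 2-fold from intact on the same side.

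The same genes were counted cell by cell, and since they were chosen on this comparison the shares describe the choice. At 2000 UMIs, 4.52% of intact cells held none of the 12 genes named lower, against 76.5% at day 7 and 64.1% at day 21. None of the 12 genes named higher was found in 85.2% of intact cells, 7.06% of day 7 cells and 19.1% of day 21 cells. At least 3 of these were found in 26.3% of day 21 cells. At day 21, 67.5% of Postn UMIs and 25.3% of Fbn2 UMIs lay in the 25 cells that held the most of each. The median cell held 3 of the 8 endoneurial markers in each library, and the share of cells with 3 or more was 77.4% in intact nerve, 59.2% at day 7 and 63.04% at day 21.

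**Figure D3:**
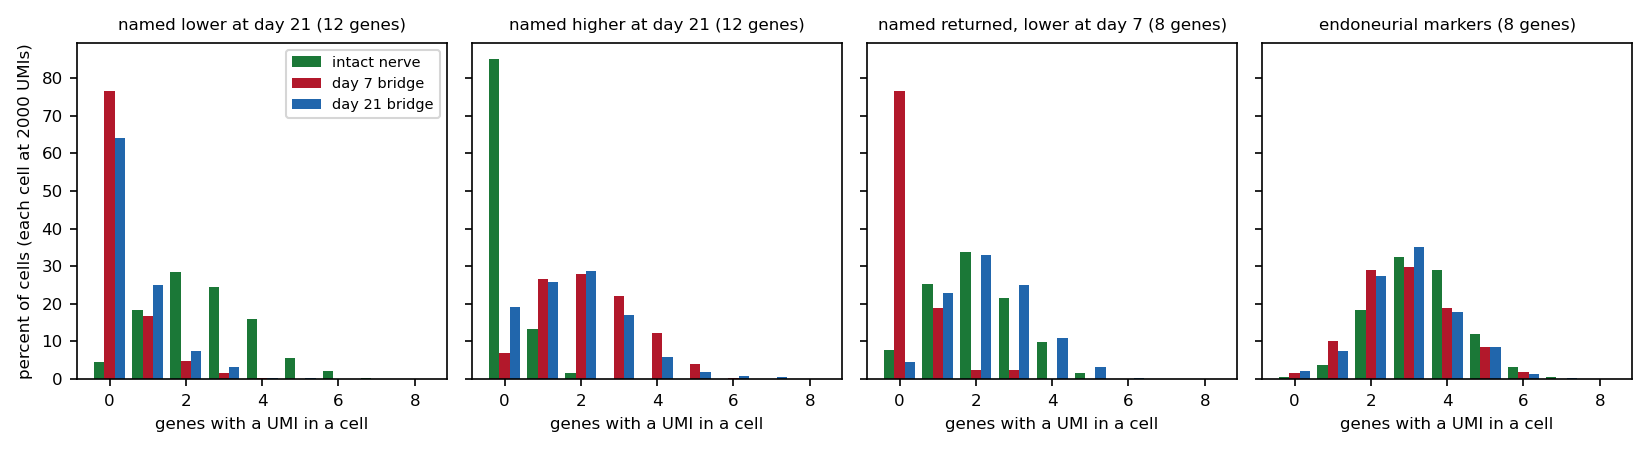
Share of endoneurial cells (vertical axis, percent) by the number of genes of a set with a UMI (horizontal axis), each cell thinned to 2000 UMIs, for intact (green), day 7 (red) and day 21 (blue) cells. The sets chosen as not returned separate day 21 from intact cells, the set chosen as returned puts day 7 apart, and the endoneurial markers have a median of 3 in each library, with more intact cells at 3 or above (77.4%) than day 21 cells (63.04%).

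Other genes were far from intact at day 7 and near it at day 21. Myoc, the secreted glycoprotein myocilin (chr1:162639155-162649693), was at 1263 CPM in intact nerve (4383 UMIs), 27.03 at day 7 (101 UMIs) and 1492 at day 21 (6494 UMIs). Its day 21 level was 1.18-fold that of intact nerve (1.14 to 1.23). A Myoc UMI was found in 70.3% of intact cells, 4.71% of day 7 cells and 83.2% of day 21 cells after thinning, and in 83.6%, 10.2% and 94.7% without. Epineurial cells were at 351 CPM in intact nerve and 256 at day 21.

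Ace, the angiotensin-converting enzyme, was at 108.7 CPM in intact nerve, 10.97 at day 7 and 108.5 at day 21, a ratio with an interval of 0.872 to 1.15 when read as intact over day 21. The caveolin genes Cav1 (172, 29.2 and 168 CPM) and Cav2 (53.9, 6.69 and 47.8), which build plasma membrane pits, were both low at day 7 alone. Adamtsl3, a matrix protein related to the ADAMTS proteases, was at 89.3, 7.49 and 115 CPM, and the sulfotransferase gene Sult5a1 at 318, 44.96 and 354. The cytokine gene Il17d was at 72.05, 12.04 and 89.9 CPM. Efhd1, a calcium-binding protein gene, was at 80.98, 8.03 and 54.7 CPM. None of the 8 was held by fewer than 187 UMIs in the intact class, and all 8 stayed within 2-fold of intact at day 21 in the 9 alternatives run.

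On the other side, H19, an imprinted long noncoding RNA, was at 116 CPM in intact nerve, 1253 at day 7 and 84.6 at day 21. The neutrophil-attracting chemokine Cxcl2 was at 57.1, 702 and 85.3 CPM, but its day 21 log2 ratio of 0.58 was past 2-fold with each cell weighted alike (1.16), after thinning (1.10) and without the tenth of cells with the most UMIs (2.30). Cspg5, a brain-type chondroitin sulfate proteoglycan, was at 15.9, 144 and 23.2 CPM, and the cartilage matrix gene Matn4 at 11.5, 103.04 and 14.0. Lrrc32, which holds latent TGF-beta on the cell surface, was at 8.36, 56.2 and 11.5 CPM, and Tmem176a at 49.9, 249 and 72.4. After thinning, Lrrc32 was at 1.05 in place of 0.45 and Matn4 at 0.81 in place of 0.28. The virus receptor and junction gene Cxadr was at 1.15, 57.5 and 1.38 CPM, where the intact and day 21 levels rest on 4 and 6 UMIs and the log2 ratio of 0.20 was -1.88 after thinning and -3.40 without cells with 3 or more perineurial markers.

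**Figure D4:**
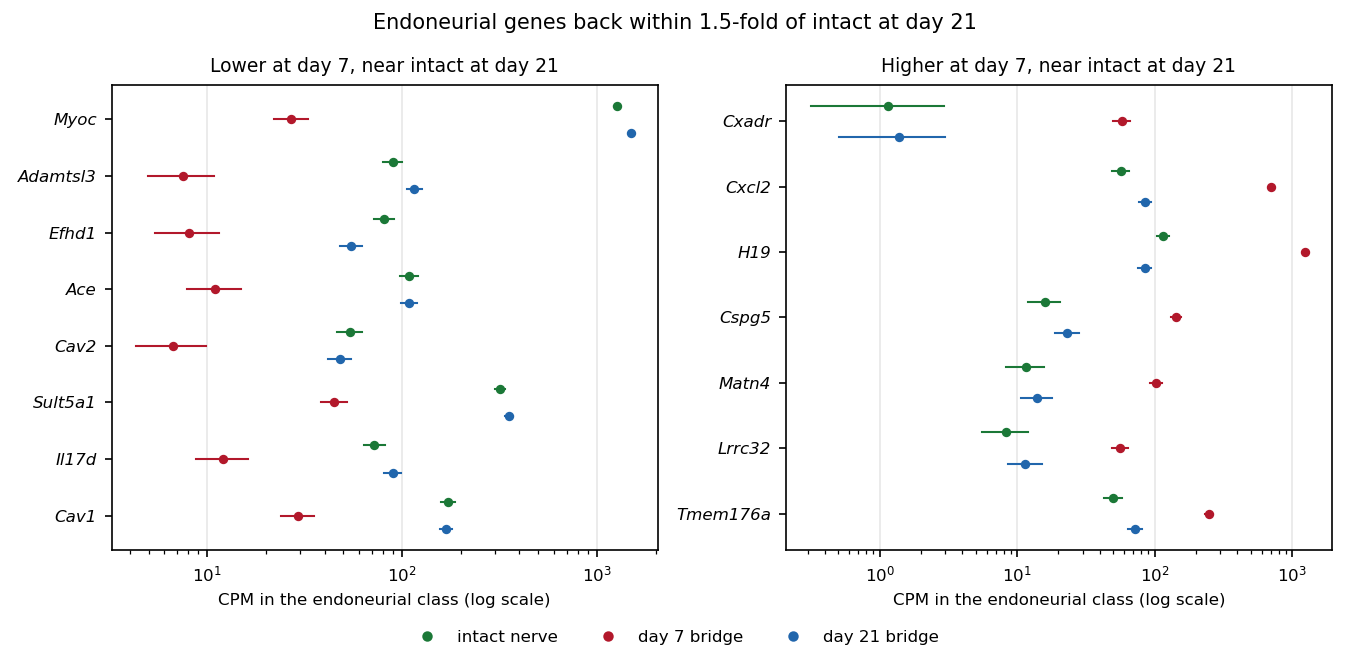
Level of 15 genes named as at least 4-fold from intact at day 7 and within 1.5-fold of it at day 21 in the endoneurial class, in CPM on a log scale, with genes lower at day 7 on the left and higher on the right. Points are intact nerve (green), day 7 (red) and day 21 (blue) with exact Poisson 95% intervals for counting error, and the red points stand apart from the green and blue pair.

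A few genes were near intact at day 7 and away from it only at day 21. Of 1865 genes within 1.5-fold of intact at day 7, 3 were at least 3-fold higher at day 21 and 3 at least 3-fold lower. Sfrp1, a secreted Wnt inhibitor (chr8:23411502-23449632), was at 17.0 CPM in intact nerve, 16.1 at day 7 and 90.5 at day 21, 5.33-fold higher than intact at day 21 (4.04 to 7.13). Tfpi2, a serine protease inhibitor, was at 35.4, 48.4 and 134 CPM, and the angiopoietin-like gene Angptl2 at 21.04, 29.2 and 66.4. On the lower side were the lysosomal protease gene Ctsh (142, 103 and 36.5 CPM), the cytochrome gene Cyp1b1 (60.8, 43.4 and 17.7) and the chemokine scavenger Ackr3 (80.7, 66.6 and 24.4). In the epineurial class Sfrp1 was at 149 CPM in intact nerve and 321 at day 21.

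Gene groups were described by 42 lists, each read against the 5.33% higher and 5.87% lower of all measured genes. A member counts as measured with at least 20 UMIs in the higher library of a comparison, so day 7 and day 21 medians can cover different members. Of lists with at least 3 measured members, 6 had a median more than 2-fold from intact at day 21, those of perineurial, Schwann cell, injury, pericyte and vascular smooth muscle markers and the Wnt list.

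**Figure D5:**
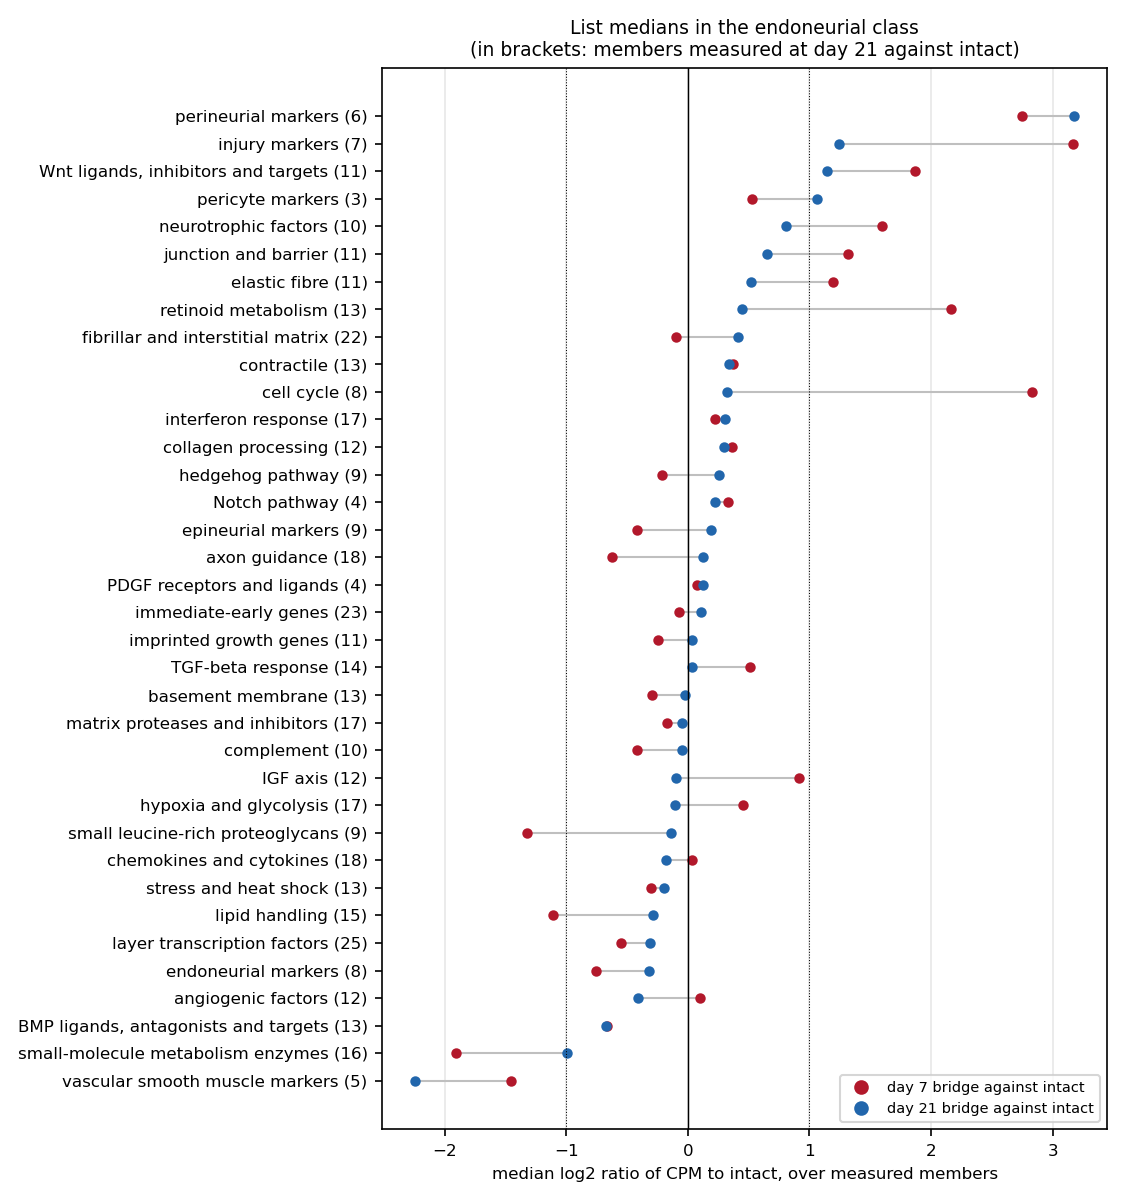
Median log2 ratio of CPM to intact over the measured members of each gene list in the endoneurial class, with red points for day 7 and blue for day 21, for lists with at least 3 measured members in both comparisons. Dotted lines mark 2-fold, and the perineurial median is above 2.7 in both comparisons. The members measured can differ between the red and the blue point of a list.

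The interstitial matrix list stood near or above intact. Of its 22 measured members 5 were more than 2-fold higher, 1 was lower and 16 lay between, with a median of 0.41 at day 21 and -0.10 at day 7. The main fibrillar collagen genes Col1a1 (8335 CPM in intact nerve, 5684 at day 7 and 10527 at day 21) and Col3a1 (7045, 4454 and 11851) were each lowest at day 7. Col5a1, which sets fibril width, was at 409, 438 and 824 CPM, and Thbs2 at 43.2, 41.2 and 106. Col11a1, a cartilage-type fibrillar collagen, was the member that was lower, at 181, 265 and 87.6 CPM, with a log2 ratio of -1.05 that was -0.83 after thinning.

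Proteoglycans of the small leucine-rich family did not move as a block. Dcn, decorin, was at 37880 CPM in intact nerve, 7861 at day 7 and 19057 at day 21, a log2 ratio of -0.99. Ogn was at 692, 119 and 188 CPM and Podn at 248, 44.4 and 102, while Lum was at 5667, 3481 and 5833. Of the 9 measured members 1 (Aspn) was more than 2-fold higher at day 21, 2 (Ogn and Podn) were lower and 6 lay between, and at day 7 there were 6 lower. After thinning Podn was at -0.999 in place of -1.28.

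The basement membrane list had no member past 2-fold at day 21, with 13 measured and a median of -0.02. Col4a1 was at 426, 388 and 467 CPM, Lama2 at 616, 270 and 483 and Nid1 at 898, 730 and 884. In the elastic fibre list 1 of 11 was higher (Fbn2) and 1 lower, which was Eln, elastin, at 16.7, 71.2 and 5.52 CPM. Of 12 collagen-processing genes 3 were higher: the lysyl hydroxylase gene Plod2 (25.6, 69.0 and 61.8 CPM), the procollagen protease gene Bmp1 (30.5, 81.6 and 70.8) and the prolyl hydroxylase gene P3h1 (29.1, 65.0 and 64.3).

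Proteases and their inhibitors went both ways. Timp1, a metalloproteinase inhibitor, was at 22.8 CPM in intact nerve, 417 at day 7 and 91.9 at day 21. The aggrecan-cleaving protease genes parted, with Adamts4 at 29.1, 81.4 and 105 CPM and Adamts5 at 67.4, 13.9 and 19.8. The membrane-bound collagenase gene Mmp14 was at 92.8, 296 and 236 CPM, and Mmp2 at 1231, 649 and 1192.5. Of 17 measured members 3 were higher and 2 lower at day 21.

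Injury markers had medians of 3.17 at day 7 over 8 measured members and 1.24 at day 21 over 7, and the latter was 0.96 without the tenth of cells with the most UMIs. Cthrc1, a collagen-triple-helix protein of injured tissue, was at 47.8, 985 and 258 CPM, and Tnc, tenascin C, at 1.15, 116 and 12.2. Tnfrsf12a was at 23.3, 92.6 and 55.4 CPM, and Runx1 at 32.9, 87.8 and 43.4. At day 21 4 of 7 were higher and none was lower. In the cell cycle list 8 members were measured at day 21, of which 2 were higher. Ccnb2, a mitotic cyclin, was at 1.73, 40.7 and 5.98 CPM.

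Of 10 measured neurotrophic factor genes 5 were higher and 1 lower at day 21. Igf1, insulin-like growth factor 1, was at 243 CPM in intact nerve, 1107 at day 7 and 802 at day 21, 3.30-fold higher at day 21 (3.06 to 3.56). It was found in 57.6% of intact and 91.8% of day 21 cells without thinning. These 2 shares are not corrected for depth, a median of 4779 UMIs per intact cell and 8649 per day 21 cell. Mdk, midkine, related to Ptn, was at 254, 992 and 328 CPM. Fgf7 was at 12.4, 20.1 and 29.6 CPM and Fgf2 at 9.51, 7.76 and 4.37.

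In the insulin-like growth factor axis list as a whole, 1 of 12 measured genes was higher and 4 were lower at day 21. Igfbp5, a binding protein that holds the factor in matrix, was at 990 CPM in intact nerve, 1868 at day 7 and 306 at day 21, 3.24-fold lower (3.04 to 3.45). In the epineurial class Igfbp5 was at 1510 and 2114 CPM, and in the perineurial class at 684 and 1251. The receptor gene Igf1r was at 63.1, 16.1 and 17.7 CPM in endoneurial cells. Igfbp3, high at day 7 alone, was at 3.46, 120 and 5.75 CPM.

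The bone morphogenetic protein list had more members lower than higher, 4 against 3 of 13. Bmp4 was at 31.7, 3.48 and 5.06 CPM, Bmp5 has been given, and the target gene Id1 was at 22.5, 11 and 6.20. The antagonist gene Chrdl1 was at 2.02, 21.1 and 22.8 CPM. Its median was -0.66 at day 7 and -0.67 at day 21.

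Wnt genes leaned higher, with 6 of 11 higher, 1 lower and a median of 1.14 at day 21 and 1.87 at day 7. The day 21 median was within 2-fold after thinning (0.86), without cells with 3 or more perineurial markers (0.665) and with no count minimum (0.41). Of the 6, 5 encode secreted Wnt inhibitors or related factors, namely Sfrp1, Sfrp4 (12.1, 169 and 31.0 CPM), Sfrp5, Wif1 and Dkk3 (28.2, 47.9 and 62.5). Of these, Sfrp4 and Dkk3 were within 2-fold of intact after thinning, at log2 ratios of 0.83 and 0.89. The other is the ligand gene Wnt6, at 4.32, 8.83 and 26.9 CPM. Wnt6 was at a log2 ratio of 2.60, or 1.99 without the 23 day 21 cells and 1 intact cell that held 3 or more perineurial markers. The ligand gene Wnt5a was the lower one, at 45.8, 16.6 and 20.9 CPM, and the target gene Axin2 was at 13.5, 4.28 and 10.1.

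Retinoid genes split evenly, with 5 higher, 5 lower and 3 within 2-fold of 13, and a median of 0.45 that was -0.70 after thinning. Besides Rbp4, the dehydrogenase genes Adh1 (31.1, 9.90 and 5.29 CPM) and Aldh1a1 (54.2, 6.69 and 12.4) and the retinoic acid-degrading enzyme gene Cyp26b1 (152, 26.2 and 54.7) were lower. Dhrs3, a retinal reductase, was at 38.9, 59.1 and 8.73 CPM. Higher were Rdh10, which makes retinal from retinol (30.8, 187 and 83 CPM), the retinol uptake receptor Stra6 (2.88, 176 and 17.7) and Aldh1a3, which makes retinoic acid (17.3, 565 and 57.9). Crabp2, which carries retinoic acid, was at 0.865, 74.4 and 34.7 CPM from 3 UMIs in intact nerve. Its log2 ratio was 5.11, or 3.90 without cells with 3 or more perineurial markers, and its day 21 level in perineurial cells was 509 CPM.

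Small-molecule metabolism genes were lower or near intact, with 8 of 16 lower and 0 higher at day 21 and a median of -0.99, against -1.91 at day 7. The day 21 median was past 2-fold in several alternatives, at -1.73 after thinning. Inmt, a methyltransferase, was at 25.9 CPM in intact nerve, 0.268 at day 7 and 1.38 at day 21. Gstm1, a glutathione transferase, was at 313, 45.5 and 108 CPM, and the sulfotransferase gene Sult1a1 at 59.9, 3.75 and 18.4. Sult5a1 and Mgst1 (159, 35.6 and 138 CPM) were the near-intact kind.

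Lipid handling genes had a median of -1.11 at day 7 and -0.29 at day 21, with 3 of 15 higher and 2 lower at day 21. Enpp2, which makes the signalling lipid lysophosphatidic acid, was at 561 CPM in intact nerve, 25.2 at day 7 and 167 at day 21. The transporter gene Abca6 was at 776, 88.1 and 324 CPM. Apod, apolipoprotein D, was at 25252, 15412 and 15233 CPM and Apoe at 1276, 290 and 852. Fabp5, a fatty acid binding protein, was higher, at 8.93, 62.9 and 29.0 CPM.

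Among immune signals, 14 of 18 measured chemokine and cytokine genes lay within 2-fold of intact at day 21, 3 were higher and 1 was lower. Over all measured genes, 9055 of 10197 lay within 2-fold. Ccl2, a monocyte attractant, was at 899 CPM in intact nerve, 1986 at day 7 and 1111 at day 21. The cytokine gene Il6 was at 33.1, 80.8 and 104 CPM, with a log2 ratio of 1.64 that was 3.00 without the tenth of cells with the most UMIs. Il33, an alarmin stored in nuclei, was the lower member at 405, 210 and 131 CPM. In the complement list C3 was at 15.9, 53.8 and 64.3 CPM. Of 23 immediate-early genes, which digestion of tissue can induce, 3 were higher and 0 lower, and Fos was at 4108, 2239 and 4187 CPM.

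Of 25 measured transcription factors of the nerve layers, 21 lay within 2-fold of intact at day 21, 1 was higher and 3 were lower. The counts over all measured genes were 9055 within 2-fold of 10197, with 5.33% higher and 5.87% lower. Meox2 was at 85.9 CPM in intact nerve, 123 at day 7 and 180 at day 21, Ebf1 at 667, 253 and 355, Tcf4 at 814, 377 and 657 and Twist1 at 108, 108 and 90.1.

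Several signalling lists had medians near 0 and single members far from intact. In the TGF-beta response list, 2 of 14 were higher and 1 lower, with Nrep at 32.6 CPM in intact nerve, 171 at day 7 and 138 at day 21, and the matricellular gene Ctgf at 48.4, 43.6 and 18.6. In the hedgehog list, 2 of 9 were higher and 1 lower. Its receptor gene Ptch1 was at 263, 226 and 195 CPM and its target Gli1 at 55.6, 47.4 and 53.5, while the coreceptor gene Gas1 was at 40.1, 18.5 and 18.8. Notch2, a Notch receptor gene, was at 86.7, 36.9 and 33.8 CPM, the 1 of 4 measured Notch genes past 2-fold.

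Among 18 axon guidance genes 4 were higher and 2 lower at day 21. The netrin gene Ntn4 was at 157 CPM in intact nerve, 9.10 at day 7 and 94.2 at day 21, and the semaphorin gene Sema3b at 51.6, 5.62 and 23.0. Robo1, a Slit receptor, was at 4.90, 12.6 and 17.0 CPM. The interferon list had 3 of 17 higher and 2 lower, and its higher members included Mndal (12.1, 33.5 and 58.8 CPM) and Ifi203 (6.92, 26.8 and 49.9), whose annotated spans overlap, so reads may be split between them. The nuclear receptor gene Nr4a2, of the immediate-early list, was at 20.2, 241 and 95.8 CPM.

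Contractile genes had 3 of 13 lower, 0 higher and 10 within 2-fold, with a median of 0.34 that was -0.31 after thinning. Among the lower ones was the myosin kinase gene Mylk at 121, 13.6 and 42.1 CPM. Hypoxia and glycolysis genes had 2 of 17 lower and 0 higher, and stress and heat shock genes 2 of 13 lower and 0 higher, with Hspa1a at 65.1, 16.1 and 25.7 CPM. Epineurial markers had 2 of 9 higher and 1 lower and summed to 1026 CPM in intact nerve, 641 at day 7 and 1119 at day 21. Their member Pi16 was at 11.2, 52.5 and 41.6 CPM, and Cd34 at 551, 270 and 734. Tnmd, a tendon marker, was at 5.19, 0.268 and 30.6 CPM, while the tendon factor gene Scx had 0 counts in intact nerve and at day 21.

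Perineurial markers were higher in the day 21 endoneurial class. Of 6 measured perineurial markers 5 were more than 2-fold higher, with a median of 3.18. That median was 2.31 without the 23 day 21 cells and 1 intact cell that held 3 or more perineurial markers. It was 2.625 without the tenth of cells with the most UMIs. The 8 markers summed to 42.7 CPM in intact nerve, 170 at day 7 and 219 at day 21. Most of that sum was Cldn1, the tight junction protein claudin-1, at 27.1, 119 and 156 CPM, 5.76-fold higher at day 21 (4.64 to 7.23). A Cldn1 UMI was in 6.18% of intact and 22.2% of day 21 cells after thinning. The integrin gene Itgb4 was at 1.15, 13.4 and 18.4 CPM. The 5 higher markers include members not named here. Msln (0 counts at day 21) and Perp (1.38 CPM) were at or near 0 and were not among the 6 measured. Slc2a1, the barrier glucose transporter, was at 11 and 16.1 CPM in intact nerve and at day 21. The perineurial class was 2069 cells at day 21 against 116 in intact nerve and held Cldn1 at 878 CPM in intact nerve and 1090.3 at day 21. The epineurial class went from 3.55 to 108 CPM of Cldn1, and the part of free RNA in these values was not tested.

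Schwann cell transcripts were also higher, in this class and in the other 2. Mbp, a myelin protein gene, had 0 counts in intact endoneurial cells and was at 2.14 CPM at day 7 and 35.6 at day 21, at least 41.2-fold higher than 3 counts in intact nerve. At day 21 Mbp was at 61.9 CPM in the epineurial class and 60.7 in the perineurial class. Of 6 measured Schwann cell markers 5 were higher and 1, S100b, was lower (86.5, 28.6 and 28.7 CPM), with a median of 2.74, or 2.91 with Mbp set at the floor of 3 counts. The 9 markers summed to 93.1 CPM in intact nerve and 222 at day 21 in endoneurial cells. Myelin-removal beads were used on the intact tissue, and their part in this difference was not tested.

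Markers of mural and endothelial cells went different ways. Of 5 measured smooth muscle markers 4 were lower, among them Acta2, smooth muscle actin, at 41.8 CPM in intact nerve, 18.7 at day 7 and 2.76 at day 21. The 8 smooth muscle markers summed to 241 CPM and 89.4 CPM. Acta2 was also lower in the other classes, at 26.3 and 5.44 CPM in epineurial and 543 and 3.96 in perineurial cells. Of 3 measured pericyte markers Rgs5 (2.88, 24.4 and 6.20 CPM) and Vtn (124, 96.9 and 274) were higher. Endothelial markers summed to 8.93 CPM in intact nerve and 26.9 at day 21, of which Cdh5, vascular cadherin, was 19.5. Cldn5 had 0 counts and Pecam1 was at 1.61 CPM, and only 1 of the 8 endothelial markers was measured at day 21. The same 8 symbols summed to 357 CPM in the intact perineurial class. At day 21 they summed to 285 CPM in the perineurial and 67.6 in the epineurial class. These symbols are therefore not specific to endothelial cells here, and the part of perineurial RNA in the endoneurial sum was not tested. Myeloid markers summed to 9.80 and 15.9 CPM, and lymphocyte markers to under 1 CPM in both.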

How the data were processed

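Raw UMI counts were used as deposited, 1 matrix per library, and the file headers credit all 3 matrices to Cell Ranger 6.1.2. The submitters' processing notes also name the builds mm10 and GRCm38, Cell Ranger 3.0.2 and Seurat 4.0.1. Classes were taken from the authors' deposited cell metadata, in which 1 day 21 cell had no match among the barcodes. How doublets were treated is not given in the sources used here, and no doublet caller was run.

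Counts were summed over MES_ENDO cells per library and divided by the class total (CPM) with Python 3.11.15, numpy 2.4.6, scipy 1.17.1 and pandas 2.3.3. Log2 ratios used 0.5 added counts and genes with at least 20 UMIs in the higher library. Exact 95% intervals are Poisson for CPM, conditional binomial for ratios and Clopper-Pearson for shares of cells. Cells thinned to 2000 UMIs used a fixed seed. The code was tested on simulated data.

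Named genes (at least 50 CPM and 10% of cells) were the 12 highest and 12 lowest day 21 ratios, up to 8 returned genes each way (4-fold at day 7, 1.5-fold at day 21), up to 6 late genes each way (3-fold), and up to 4 members of each list with at least 20 CPM. Other list members were chosen after their values were seen. The members and lists were chosen with earlier results of these data known. Gene positions came from GENCODE M21, for genes with the same identifier version, and promoters from RefSeq. Scaling, depth, cell choice, count minimum and fold were varied. Some genes are not reported here.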

Additional observations from a re-analysis of the deposited data

Results flagged for a closer look

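Some genes were more than 2-fold from intact at day 21 in the endoneurial class and more than 2-fold the opposite way in another class of the same libraries. Each class is 1 sum per library, so none of these differences was tested. Gjc3 had a log2 ratio of -2.60 in endoneurial cells, 2.36 in epineurial cells and 2.48 in perineurial cells. Its levels at day 21 were 8.96, 3.20 and 3.81 CPM in these classes. The intact epineurial and perineurial levels of Gjc3 were lower still. Its ratios in those classes therefore rest on few or no intact counts and on the counts added before division. No opposite move of Gjc3 is concluded from them. Aspn was at 4.29 in endoneurial and -1.0 in perineurial cells. Col8a1, a short-chain collagen, was at 1.09 in endoneurial and -1.60 in perineurial cells. Fgf7 was at 1.25 in endoneurial and -1.02 in perineurial cells. The complement gene C3 was at 2.01 in endoneurial and -2.30 in epineurial cells.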

How the results depend on the processing

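No paired analysis was possible because each group is 1 library, and for the same reason no replicate could be left out. The counts of 543 genes higher and 599 lower at day 21 were 550 and 588 under median-of-ratios scaling. Thinning to 2000 UMIs, which leaves fewer genes measured, gave 307 higher and 466 lower. A minimum of 100 UMIs gave 188 higher and 211 lower, and no minimum 3325 and 3682. A 4-fold threshold gave 151 and 129, and counting intervals wholly past 2-fold gave 202 and 237. Leaving out, for each gene, the 5% of cells with most of its UMIs, which empties genes found in few cells, gave 1628 and 332, and 10 lists with a median past 2-fold in place of 6. The pericyte median of 1.06, over 3 genes, was -0.15 with no count minimum and within 2-fold with each cell weighted alike (0.82) and without the tenth of cells with the most UMIs (0.685). On thinning the median of neurotrophic factors was 1.62 in place of 0.81 and that of contractile genes -0.31 in place of 0.34, and without the tenth of cells with the most UMIs that of chemokines and cytokines was 0.72 in place of -0.18. Without the 5% of cells, Cxcl2, Matn4, Lrrc32, Cspg5 and Tmem176a, given as returned, were past 2-fold.

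Of 107 named genes past 2-fold, 97 stayed past it in all 9 alternatives that apply to single genes, among them the 1 chosen after seeing the data (cells with more epineurial than endoneurial marker UMIs left out). Among the 10 that did not were Col11a1, Fbln1, Podn, Dkk3, Bnip3, Nrp1, Sox9, Sfrp4 and Angptl4. More than 1.5-fold was the move of 64 named genes in some alternative, and of 20 in those other than leaving out 5% of cells. On thinning, Lgals7 went from 8.51 to 7.10, Mbp from 7.95 to 7.10, A2m from -2.61 to -2.02, Idi1 from -2.87 to -2.19, Sqle from -2.53 to -1.86, Col2a1 from -2.34 to -1.54, Adh1 from -2.53 to -3.52, Chrdl1 from 3.40 to 5.66, Sbspon from 3.12 to 3.81, Plac8 from 3.76 to 4.44 and Pcdh19 from 3.01 to 2.35. Without the tenth of cells with the most UMIs, Col14a1 went from 4.44 to 5.26 and Timp1 from 2.01 to 2.61. The cause of these moves was not tested.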

Other observations

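3 further gene groups were put together after their values had been seen and are given as descriptions. Of 21 measured genes of sterol synthesis and its control, 17 were more than 2-fold lower in the day 21 endoneurial class and 0 higher, with a median log2 ratio of -1.64 at day 21 and -2.47 at day 7. Their summed level was 1284 CPM in intact nerve, 253 at day 7 and 376 at day 21. Hmgcs1, which makes HMG-CoA, was at 151, 27 and 39.1 CPM, and the farnesyl diphosphate synthase gene Fdps at 151, 22.7 and 35.4. Sc5d, a sterol desaturase, was at 47.8, 4.01 and 8.96 CPM, and Srebf2, the transcription factor of the pathway, at 89.0, 18.7 and 29.6. Ebp, a sterol isomerase, was at 53.9, 45.0 and 42.5 CPM and lay within 2-fold of intact. In the epineurial class 7 of 21 were lower, with a median of -0.55, and in the perineurial class 14 of 21, with -1.25. The share of all measured genes that was lower was 5.87% in the endoneurial, 4.65% in the epineurial and 10.9% in the perineurial class. The exporter gene Abca1, given above, was higher in the day 21 endoneurial class.

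RefSeq promoter windows (250 bases before the start, GRCm38.p6) were found for 16 of the 23 sterol genes. CCAAT, on either strand, was in 16 of 19 windows, at least 1 for each of the 16 genes, against 33.85% of all 32851 windows. TCACNCCAC, a form of the sterol regulatory element, was in 1.05% of all windows and in 1 of the 19, that of Hmgcs1. These matches are descriptions of letters in these windows. The stretches of 3 genes are shown as examples, at chr13:119690174-119690262 (plus strand) for Hmgcs1, chr8:64733594-64733668 (minus) for the sterol demethylation gene Msmo1 and chr5:4104698-4104761 (minus) for Cyp51, with both motifs in capitals.
Hmgcs1: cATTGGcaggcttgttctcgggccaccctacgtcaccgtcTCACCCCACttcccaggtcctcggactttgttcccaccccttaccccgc
Msmo1: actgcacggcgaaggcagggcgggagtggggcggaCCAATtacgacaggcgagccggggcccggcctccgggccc
Cyp51: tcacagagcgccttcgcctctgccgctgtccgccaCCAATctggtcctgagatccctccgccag
Msmo1 was at 87.6, 10.7 and 22.1 CPM and Cyp51 at 62.0, 9.63 and 14.7 in intact, day 7 and day 21 endoneurial cells.

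Of 15 genes known to respond to glucocorticoid, 5 were more than 2-fold lower at day 21 and 0 higher, with a median of -0.44. Among all measured genes 5.87% were lower and 5.33% higher. Tsc22d3, a classical target, was at 172 CPM in intact nerve, 18.2 at day 7 and 35.4 at day 21, and Crispld2 and Hsd11b1 belong to the same group. The receptor gene Nr3c1 was at 110, 54.3 and 79.1 CPM, and the target Klf9 (176, 156 and 217) was within 2-fold. Cartilage-type matrix genes were in part present in intact endoneurial cells. Col2a1 was at 65.4, 31.6 and 12.9 CPM and Col9a2 at 96.0, 13.6 and 23.7, while the aggrecan gene Acan had 0 counts in intact nerve and at day 21. Col2a1 had 0 counts in the epineurial class of both libraries.

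Gcg and Fap lie next to each other on the minus strand of chromosome 2. Fap, a fibroblast surface protease (chr2:62500943-62574075), was at 126 CPM in intact endoneurial cells, 88.6 at day 7 and 180 at day 21, and at 175 CPM in the day 21 epineurial class, where Gcg was at 1.55 CPM. In these class sums the 2 genes did not keep 1 ratio, and the reason was not tested.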
